A study of Caenorhabditis elegans with 30 samples.

Results

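The comparison described here is that of nematodes exposed to AZT with nematodes exposed to FLT, both at 100μM for 24h. It rests on 6 libraries of the 30 in the series, 3 with AZT and 3 with FLT, chosen by their exposure and time labels, and it was described across all genes. AZT (zidovudine) and FLT (alovudine) are nucleoside reverse transcriptase inhibitors (NRTIs) built on deoxythymidine. They differ at a single position of the sugar, where AZT carries an azido group and FLT a fluorine in place of the hydroxyl, so that neither can be extended once it is built into a DNA strand. *C. elegans* were raised to the larval L4 stage, moved to plates holding the compound, and sampled whole after 24h, with eggs and bacteria removed on a mesh. The other groups used here are nematodes with 0.033% DMSO, the solvent of the compounds, and unexposed nematodes, 3 libraries each at 24h, and the AZT and FLT groups at 72h, also 3 libraries each. The compound was mixed into the agar, the worms of 72h were moved to fresh plates daily, and neither a strain nor the number of worms in a library is given in the labels. The replicates are biological by the methods of the study.

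Background on the animals helps to read the values. Between the L4 stage and the first days of adult life a hermaphrodite completes its last moult, stops making sperm and turns its gonad to oocytes. Oocytes are loaded with maternal transcripts held by RNA-binding proteins, and yolk made in the intestine is taken up through a receptor on the oocyte. Thymidine analogues enter cells through nucleoside transporters, are phosphorylated by kinases and compete with thymidine triphosphate. The DNA polymerase of mitochondria, polymerase-γ, is the classical target of this drug class. In RNA from whole worms, fewer cells of a type and less RNA per cell cannot be told apart.

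The AZT libraries held 18714147, 15861163 and 25412771 counts on genes and the FLT libraries 16146341, 19584429 and 17135346. Levels are given as CPM, the usual scaling of read counts to the library's total on genes, with totals adjusted by the trimmed mean of M-values (TMM), which takes the bulk of genes as level. The 3 AZT libraries resembled each other closely (Pearson r of log2 CPM across genes 0.989 to 0.990), while FLT replicate 3 stood apart from the other FLT libraries (0.961 and 0.977, against 0.980 between those) and was nearest to d4T replicate 3 (0.982). Another thymidine analogue, d4T, was part of the series, and its replicate 2 at 24h resembled the AZT libraries (0.987) more than the other d4T libraries (0.914 and 0.933), against its label. On the first principal component of the 24h libraries, which held 54.7% of the variance, AZT lay at −76.83, −77.24 and −48.85, FLT at 42.68, 54.58 and 107.6, the DMSO libraries between 2.5 and 10.1 and the unexposed libraries between −71.0 and −48.8. The AZT and FLT groups thus lay on opposite sides of the DMSO group, and the AZT group overlapped the range of unexposed nematodes. DMSO replicate 1 stood apart on the second component (−111). The sample labels give no lane. By the names under which the counts were deposited, AZT libraries came from a lane of one flow cell and FLT libraries from a lane of another. Lane and exposure therefore cannot be told apart. Reads that aligned to more than one place made up 10.2 to 11.5% with AZT and 14.2 to 14.7% with FLT, and their part in the results was not tested.

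**Figure D1:**
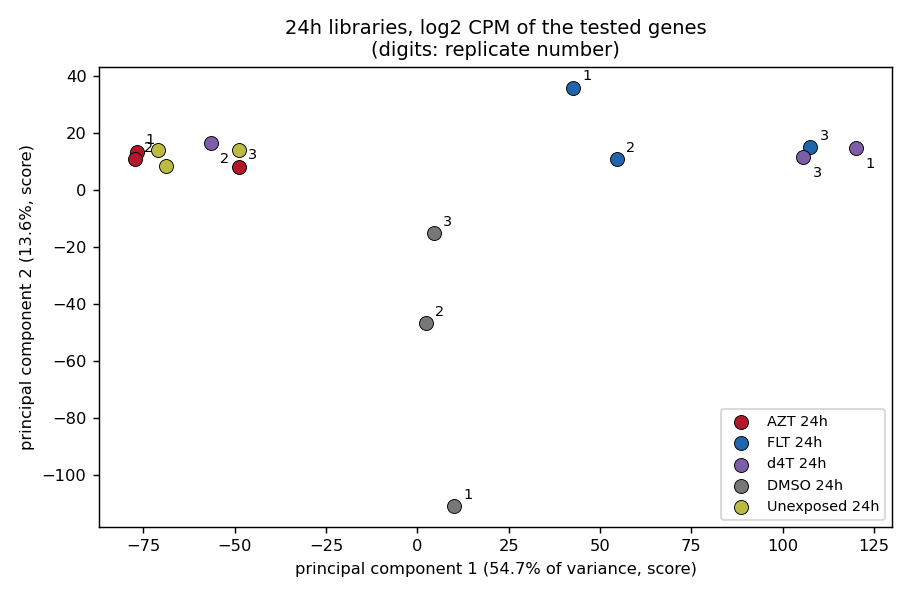
The 15 libraries of 24h on their first and second principal components of log2 CPM (axes in component units, with the share of variance of each), 1 point per library and a colour per group. AZT libraries lie at negative values of the first component with the unexposed libraries, and FLT libraries at positive values, replicate 3 the farthest of them at 107.6.

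Of 46726 genes in the files, 16048 held enough counts to be tested in a model of all 30 libraries. A gene was called when edgeR's quasi-likelihood test gave a Benjamini-Hochberg adjusted p under 0.01. Between AZT and FLT 6499 genes were called (40.5% of those tested), 2786 higher with AZT (17.4%) and 3713 lower with AZT (23.1%), and 10065 passed at an unadjusted p under 0.05. The changes had unlike sizes in the 2 directions. Of the genes called higher 1215 differed more than 2-fold, 107 more than 4-fold and 9 more than 8-fold, while of those called lower 2987 differed more than 2-fold, 1105 more than 4-fold and 390 more than 8-fold. The median log2 difference was 0.94 among genes called higher, −1.52 among those called lower and −0.33 over all genes tested. Genes called higher were abundant, with a median of 76.9 CPM over the 6 libraries, and genes called lower were scarce, with a median of 8.02 CPM. The 3 AZT libraries lay above the 3 FLT libraries for 4614 genes (28.8%) and below them for 6268 (39.1%). These shares are the background for the counts of gene groups below.

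The number of calls depended on single libraries and on scaling. Without FLT replicate 3 the test called 1948 genes higher and 1562 lower. It called 2225 higher and 2261 lower without AZT replicate 1, and 2136 higher and 2162 lower without AZT replicate 2. With d4T replicate 2 kept out of the model 3865 were called higher and 4513 lower. With library totals in place of TMM the median of all genes moved by −0.25, and 1826 genes were called higher and 4895 lower, so that the share called higher fell to 27.2% of the calls with library totals, against 42.9% with TMM. For 9549 genes no call was made, and for 4180 genes (26% of those tested) the 95% interval of the difference lay within 2-fold in either direction, which bounds how far AZT and FLT could differ there.

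Where the calls lay relative to the controls was counted from group means. Of the 2786 genes called higher, 2044 (73.4%) had an AZT mean above and an FLT mean below both the DMSO and the unexposed mean. For 667 (23.9%) the FLT mean alone lay outside the control means and for 54 (1.94%) the AZT mean alone. Of the 3713 called lower, 2139 (57.6%) had the AZT mean below and the FLT mean above both control means, 959 (25.8%) had FLT alone outside and 420 (11.3%) AZT alone. By group means, most called genes thus had AZT and FLT on opposite sides of both controls. No margin was set and no test made, so that very small distances count. For *asp-1*, called lower, the AZT mean was 842 CPM beside 894 in unexposed nematodes. Its FLT mean was 2309.7 CPM beside 2301 with DMSO. The same share over all tested genes was not counted. Among genes called lower the AZT mean was nearer to the unexposed mean than to the DMSO mean for 79.7%, and the FLT mean for 21.2%. Among genes called higher the shares were closer to each other, at 56.5% for AZT and 42.7% for FLT.

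The calls were unevenly spread over the chromosomes. On chromosome III 25.8% of 2394 tested genes were higher with AZT and 16.8% lower, and on chromosome I 25.4% of 2474 were higher and 17% lower. On chromosome X only 138 of 2303 tested genes (5.99%) were higher and 758 (32.9%) lower, with a median log2 difference of −0.72, against 0.16 on chromosomes I and III. Chromosome V, which carries many large gene families of defence and chemosensation, had 406 of 3231 tested genes higher and 851 (26.3%) lower. In *C. elegans* the X chromosome is largely silent in the germ line during most of its development, and genes of the germ line are depleted from it.

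Genes of the oocyte were higher with AZT. Of 31 tested genes of oocytes and maternal RNA control 28 were higher with AZT and 0 lower, with a median log2 difference of 1.73, and 25 were higher without FLT replicate 3. *lin-41* (WBGene00003026, chromosome I of WBcel235, 9334800 to 9342496), a TRIM-NHL protein that holds back maturation of growing oocytes, had 351, 440.2 and 353 CPM with AZT and 86.6, 53.8 and 25.5 CPM with FLT, against means of 219 with DMSO and 178 in unexposed nematodes. Every AZT library lay above and every FLT library below the controls, and the log2 difference was 2.79 (standard error 0.43, adjusted p = 3.7e-05 from edgeR). The translational regulators *oma-2*, *puf-5*, *puf-7* and *mex-5* differed by 2.54, 2.49, 2.51 and 2.46 on the log2 scale. The helicase gene *cgh-1*, which keeps maternal transcripts in store, had 2402, 2512 and 2414 CPM with AZT and 1019, 798 and 395 CPM with FLT. The germline stem cell regulators *fbf-1* (0.45) and *fbf-2* (0.07) were not called. Summed over the list, transcripts reached 20308, 21859.7 and 20002 CPM with AZT and 8977, 8004 and 4586 CPM with FLT. The sums were thus 2.88 times as high with AZT, with FLT replicate 3 the lowest.

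The yolk receptor and the eggshell followed the oocyte genes, but yolk did not. *rme-2* (chromosome IV, 5470026 to 5473174), the receptor that takes yolk into oocytes, had 891, 1069.7 and 717 CPM with AZT and between 56.8 and 166 CPM with FLT, a log2 difference of 2.97 (standard error 0.48, adjusted p = 5e-05). None of the 6 yolk protein genes *vit-1* to *vit-6* was called. *vit-2*, for example, had 12749, 15209.5 and 14914 CPM with AZT and 14637, 19254 and 20702 CPM with FLT, and its difference of −0.35 had a 95% interval of −0.88 to 0.18. Yolk is made in the intestine and its receptor in the oocyte, and the DMSO mean of *vit-2* was 29105 CPM, above all 6 libraries. Of 17 eggshell and egg activation genes 14 were higher with AZT and 1 lower, with a median of 1.87. *cbd-1* (chromosome IV, 11372991 to 11377627), which binds chitin in the outer eggshell, had 1756, 2301 and 1813 CPM with AZT and 435, 260.3 and 159 CPM with FLT. The permeability barrier gene *perm-4* had 649.9, 792 and 632 CPM with AZT and 229.8, 239.9 and 213 CPM with FLT. The chitin synthase gene *chs-1* (2.07) and the proteoglycan genes *cpg-1* (2.75) and *cpg-2* (2.59) were also higher. The list has 2 members of another kind. *egg-6*, an extracellular leucine-rich repeat protein known from the excretory duct, was higher (2.51), and *spe-11*, a factor that sperm bring into the egg, was the member called lower (−3.02).

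**Figure D2:**
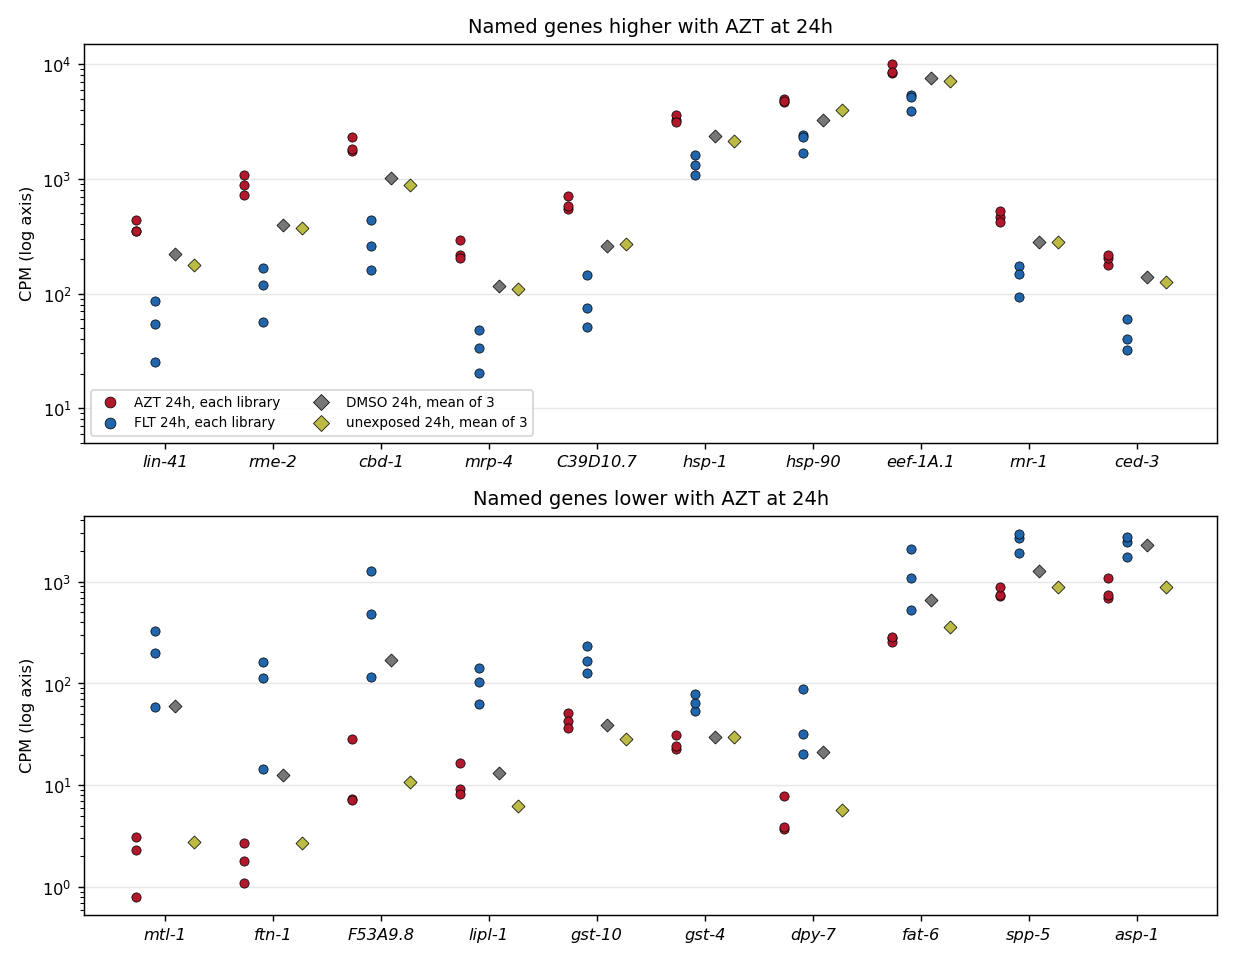
CPM on a log axis of 20 genes in the 3 AZT and 3 FLT libraries, 1 point per library, with the means of DMSO and unexposed nematodes as diamonds. In the upper row AZT libraries lie above FLT libraries, as for *rme-2* (717 to 1069.7 against 56.8 to 166), and in the lower row below them, as for *mtl-1* (0.801 to 3.07 against 58.2 to 328).

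Other germline genes differed in the same direction. Of 15 P granule genes, whose products form the RNA bodies of germ cells, 14 were higher and 0 lower, with a median of 1.57. *pgl-3*, a core P granule protein, had 205, 245 and 222 CPM with AZT and 74.9, 53.7 and 31.3 CPM with FLT, and *meg-3* had 87.2 ± 11.8 CPM with AZT and 17 ± 5.63 CPM with FLT (SD, n = 3 each). Of 18 Argonautes, which bind small RNAs, 10 were higher, among them the nuclear *hrde-1* (513 ± 33.0 CPM with AZT and 152 ± 53.8 CPM with FLT, SD, n = 3 each) and *ergo-1* (1.74). Meiotic chromosome genes were higher in part. Of 33 genes of the synaptonemal complex and meiotic axis 16 were higher and 0 lower (median 0.85), with *htp-3* at 1.37 and the cohesin *rec-8* at 1.2, and 7 were higher without FLT replicate 3 and 9 with library totals. Beside these results the germline markers *pgl-1*, *glh-1* and *gld-1* were higher in all AZT libraries than in all FLT libraries (1.23, 0.73 and 1.75), and so were the oocyte markers *oma-1* and *chs-1* (2.1 and 2.07). Embryo markers were not called, with *end-3* at 1.38 to 1.45 CPM with AZT and 1.18 to 1.42 CPM with FLT and *pes-10* at 10.5 to 11.9 and 5.32 to 13.3 CPM. The part of the number or stage of germ cells in the results was not tested.

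Genes of DNA replication and of cell division were higher with AZT as a group. Of 34 replication genes 23 were higher and 0 lower (median 1.06), and in all 34 the AZT libraries lay above the FLT libraries. The clamp loader subunit *rfc-1* had 283, 299.7 and 287 CPM with AZT and 135, 125 and 82.9 CPM with FLT, and the polymerase gene *pole-1* had 138, 159 and 152 against 74.1, 57.6 and 35.2. The replication list summed to 6779, 7324 and 6388 CPM with AZT and 3729.8, 3329 and 2159 CPM with FLT, with the DMSO libraries between 3978 and 4765 and the unexposed between 5569.5 and 6022. Of 38 genes of mitotic kinases, cyclins and the kinetochore 33 were higher and 0 lower (median 1.00). The Aurora kinase activator *tpxl-1* differed by 1.94 and the spindle protein *zyg-9* by 1.31. Without FLT replicate 3 the counts were 17 for replication and 22 for mitosis, of as many tested. Of 28 tested histone genes 4 were higher and 3 lower, and 0 and 2 without FLT replicate 3. Many histone transcripts lack a poly(A) tail, and the copies are near-identical, so that these counts are uncertain. The linker histone gene *his-24* was lower, with 61.3, 86.7 and 113 CPM with AZT and 201, 328 and 279 CPM with FLT.

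Both analogues end DNA chains, and genes that answer DNA damage were listed for that reason. Of 41 genes of recombination, mismatch and excision repair 28 were higher with AZT and 0 lower (median 0.99), and of 16 checkpoint genes 15 were higher and 0 lower (median 0.88). *xpc-1*, which finds damage for nucleotide excision repair, had 118, 125 and 136 CPM with AZT and 45.3, 33.9 and 26.6 CPM with FLT, against means of 102 with DMSO and 92.3 in unexposed nematodes. *parp-1*, a poly(ADP-ribose) polymerase with 3 genes on its other strand, had 68.7, 75.5 and 73.9 CPM with AZT and 23, 22.4 and 14.3 CPM with FLT. The mismatch repair gene *mlh-1* differed by 1.24, the transcription-coupled repair gene *csb-1* by 1.57, and the kinases *atm-1* and *chk-1* by 0.83 and 1.31. The calls for repair thinned to 15 and those for the checkpoint to 6 without FLT replicate 3, and the checkpoint count was 8 with library totals. The p53 homologue *cep-1* had 168, 168 and 156 CPM with AZT and 125, 99.3 and 67.3 CPM with FLT. It was not called (log2 difference 0.75, 95% interval 0.09 to 1.42, adjusted p = 0.049). Its means were 89.3 CPM with DMSO and 189 CPM in unexposed nematodes, so that the controls differed more than the exposures.

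Of 10 tested genes of CEP-1 and the apoptosis core 3 were higher and 1 lower, and 1 of each without FLT replicate 3. The caspase gene *ced-3* (chromosome IV, 13198261 to 13204137, with C48D1.12 on the other strand) had 179, 205 and 216 CPM with AZT and 59.9, 40.4 and 32 CPM with FLT, a log2 difference of 2.18 (standard error 0.31, adjusted p = 2.4e-05). *ced-9*, the BCL-2 homologue that restrains it, was higher too, with 96, 95 and 80 CPM with AZT and 43.3, 57.1 and 45.8 CPM with FLT, and so was the nuclease gene *crn-3* (0.67). The caspase and its inhibitor thus differed in the same direction. The upstream activator *egl-1* (−0.41) and the adaptor *ced-4* (0.64) were not called, and *phg-1* was lower (−2.31).

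**Figure D3:**
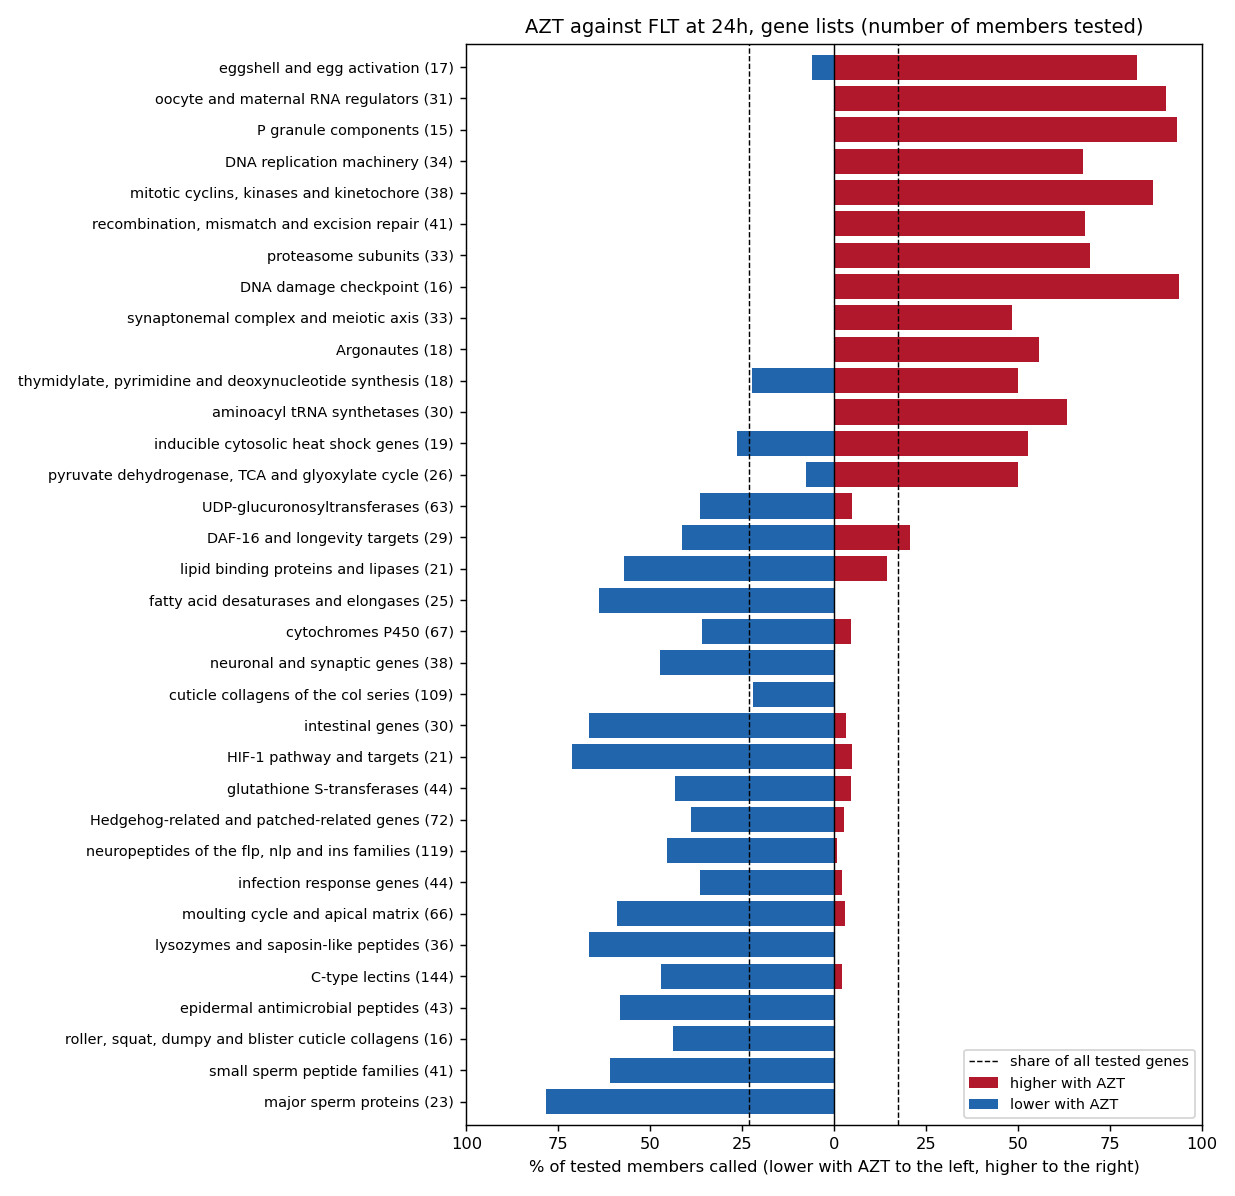
For 34 gene groups, the percentage of tested members called higher (to the right) and lower (to the left) with AZT relative to FLT at an adjusted p under 0.01. Dashed lines give the background of 17.4% higher and 23.1% lower among all tested genes. The groups shown are those with the lowest and the highest median log2 differences. Groups between them and groups of few tested members are left out. Oocyte, cell cycle, repair and proteasome groups lie to the right and sperm, cuticle, immune and neuropeptide groups to the left.

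Genes of protein turnover were higher with AZT as a group. Of 33 proteasome subunits 23 were higher and 0 lower (median 0.96, 19 higher without FLT replicate 3), and in all 33 the AZT libraries lay above the FLT libraries. Together they summed to 12389, 12821 and 11362 CPM with AZT and 7382, 6959 and 4837 CPM with FLT. The base subunit *rpn-1* had 403, 476 and 419 CPM with AZT and 167, 145 and 93.6 CPM with FLT. Of 19 cytosolic heat shock genes 10 were higher and 5 lower, and 9 and 1 without FLT replicate 3. The constitutive HSP70 gene *hsp-1* had 3289, 3573 and 3156 CPM with AZT and 1608, 1324 and 1072 CPM with FLT, *hsp-90* had 4638, 4931 and 4795 against 2436, 2325 and 1693, and their partners *sti-1* (1.27) and *dnj-13* (1.08) were higher too, as was the regulator *hsf-1* (1.07). The 5 lower ones were small heat shock genes. *hsp-16.2* had 1.15, 0.437 and 2.46 CPM with AZT and 4.43, 7.48 and 15.8 CPM with FLT, and *hsp-12.3* had 1.63, 0.947 and 3.64 against 7.23, 19.7 and 31.0. The small heat shock gene *sip-1* was higher by 1.78. The *hsp-16* genes have close copies, and counts may be shared among them.

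Chaperones of the endoplasmic reticulum were higher in 12 of 22 genes and lower in 0 (median 0.51), but higher in 8 and lower in 4 with library totals. *hsp-4*, the BiP homologue and marker of the unfolded protein response, had 361, 391 and 403 CPM with AZT and 188, 190.5 and 159 CPM with FLT, but its means were 300.2 CPM with DMSO and 343 CPM in unexposed nematodes. AZT and the unexposed group were thus close and FLT lay below both controls. The disulfide isomerase *pdi-1* differed by 1.12. Of 16 genes of the mitochondrial unfolded protein response 6 were higher and 1 lower, and *hsp-60*, the mitochondrial chaperonin, had 544, 551 and 533 CPM with AZT and 284, 246 and 193 CPM with FLT. The member called lower was *dve-1* (−1.05), a transcription factor of that response. Only 3 were called higher without FLT replicate 3.

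Translation genes differed little per gene but are abundant. Elongation factor *eef-1A.1*, among the most abundant called genes, had 8374, 10092 and 8472 CPM with AZT and 5413, 5161 and 3912 CPM with FLT (0.89), and *eef-2* had 4256, 4708 and 4064 against 2652, 2894 and 2490.4 (0.70). Of 30 aminoacyl tRNA synthetases 19 were higher and 0 lower (median 0.61), with *aars-2* at 1.27 and *wars-1* at 1.21, and 11 were higher without FLT replicate 3. Of 78 cytosolic ribosomal protein genes 7 were higher and 2 lower, with 0 of either without FLT replicate 3 and 0 higher with library totals, while the median of 0.26 was 0.32 without that library. *rpl-3* had 3999, 4217 and 4237 CPM with AZT and 3100.4, 3228 and 2974 CPM with FLT. The members called lower were *rpl-11.2* and *rpl-25.1*, each a second copy of its protein, both at −1.19. *rpl-11.2* had 227, 247 and 318 CPM with AZT and 424, 585 and 803 CPM with FLT. Reads of such copies could be split between them. Nucleolar and assembly factors were higher in 13 of 29, with *fib-1* at 0.78, and mitochondrial ribosomal proteins in 6 of 67, against 7 and 2 without FLT replicate 3.

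Of 18 tested genes of pyrimidine and deoxynucleotide metabolism 9 were higher and 4 lower with AZT, and 8 and 1 without FLT replicate 3. Most of the higher ones act in synthesis, as do several that were not called. *rnr-1* (chromosome III, 9225339 to 9228798), the large subunit of ribonucleotide reductase, had 463, 524 and 421 CPM with AZT and 172, 149 and 93.5 CPM with FLT, a log2 difference of 1.76 (standard error 0.32, adjusted p = 1.1e-04). *umps-1*, which makes uridine monophosphate, had 105 ± 6.07 CPM with AZT and 35.8 ± 6.08 CPM with FLT (SD, n = 3 each). *dut-1*, which breaks down dUTP and gives the precursor of thymidylate, had 319, 349.9 and 283 CPM with AZT and 122, 160 and 80.9 CPM with FLT. In each of these genes the AZT libraries lay above both control means and the FLT libraries below them. The folate enzyme genes *mthf-1* (1.26) and *mel-32* (0.75), the first enzyme of the pathway *pyr-1* (1.03), the CTP synthase *ctps-1* (0.93), the nucleoside diphosphate kinase *ndk-1* (0.88) and the adenosine kinase *adk-1* (0.41), an enzyme of purine salvage, were the others. For *mthf-1* the controls lay elsewhere, with 152, 151 and 174 CPM with AZT and 75.6, 68 and 56 CPM with FLT but means of 177 with DMSO and 224 in unexposed nematodes.

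The 4 genes lower with AZT act in pyrimidine breakdown and salvage. *dhp-1*, a dihydropyrimidinase, had 13.1, 13.4 and 10.3 CPM with AZT and 27.3, 39.7 and 40.9 CPM with FLT (−1.56). *dhp-2*, of the same family, had 5.19 ± 1.03 CPM with AZT and 11.8 ± 4.42 CPM with FLT (−1.2). *dpyd-1*, which starts the breakdown of thymine and uracil, had 68.5, 69.4 and 70.1 against 135, 91.7 and 130 (−0.78), and the cytidine deaminase *cdd-1* had 6.10 ± 0.935 and 13.5 ± 3.39 CPM (−1.15). Other genes of synthesis passed no test. Thymidylate synthase *tyms-1* was not called, with 114, 114 and 83.4 CPM with AZT and 77.0, 95.9 and 51.9 CPM with FLT (0.47, 95% interval −0.07 to 1.01, adjusted p = 0.13). Nor were *rnr-2* (0.83, adjusted p = 0.039), *dhfr-1* (0.50, adjusted p = 0.16), *dhod-1* (0.31, adjusted p = 0.12) and *upp-1* (0.10, adjusted p = 0.58).

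Nucleoside transporters of the ENT family carry nucleosides across membranes. Of 7 tested *ent* genes 2 were higher. *ent-5* (chromosome X, 4647526 to 4649197) had 29.1, 33.3 and 21.9 CPM with AZT and 5.89, 5.04 and 3.33 CPM with FLT, with means of 12 and 16 CPM with DMSO and in unexposed nematodes, and a log2 difference of 2.56 (standard error 0.50, adjusted p = 2.3e-04). *ent-1*, which shares its locus with *ndub-6* on the other strand, had 169.7, 172 and 131 CPM with AZT and 74.3, 89.8 and 66.0 CPM with FLT. Both genes thus differed on either side of the controls. *ent-6* (0.71), *ent-2* (−0.26), *ent-7* (−0.49), *ent-4* (−0.59) and *ent-3* (−1.15) were not called.

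None of the 7 genes that replicate and transcribe mitochondrial DNA (mtDNA) was called, although 3 of them had all AZT libraries above all FLT libraries. The polymerase-γ gene *polg-1* had 24.5, 25.6 and 28.5 CPM with AZT and 19.5, 20.3 and 21.2 CPM with FLT (0.37, adjusted p = 0.035). The mitochondrial RNA polymerase *rpom-1* had 56.6, 57.8 and 59.8 against 49.6, 40.1 and 39.2 (0.43, adjusted p = 0.014), and the mtDNA packaging factor *hmg-5* had 255, 239 and 255 against 249.6, 221 and 152 (0.27, adjusted p = 0.45). The helicase gene *twnk-1* was under 1 CPM in every AZT and FLT library.

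Transcripts of mtDNA were lower with AZT in sum, but few genes passed the test. Summed over the 12 protein genes they reached 15147, 13281 and 16313 CPM with AZT and 17523, 19408 and 17281 CPM with FLT, with DMSO libraries between 13086 and 15807 CPM and unexposed libraries between 26528 and 29537 CPM. The controls were thus farther apart than the compounds. Of the 12 genes 2 were called lower and 0 higher. *COX1*, a subunit of cytochrome oxidase, had 3765, 3478 and 4193 CPM with AZT and 4824, 5920.2 and 5143 CPM with FLT, a log2 difference of −0.47 (95% interval −0.76 to −0.19, adjusted p = 0.0058). *ND4L*, of complex I, had 22.2, 10 and 11.5 CPM with AZT and 25.7, 32.1 and 28 CPM with FLT (−0.97, adjusted p = 0.0082). Both calls were lost without FLT replicate 3 and in several other fits, while 6 of the 12 genes were called lower with library totals. *CYTB* (−0.02), *COX2* (−0.08), *ATP6* (−0.26) and *ND1* (0.19) were not called. Nuclear genes of the respiratory chain also moved little. Of 31 complex I genes 4 were higher and 0 lower, of 29 genes of complexes II to IV 5 and 1, and of 16 ATP synthase genes 3 and 2, with medians of 0.15, 0.11 and 0.12 that turned to −0.10, −0.14 and −0.13 with library totals. Within complex V the catalytic subunits *atp-1* (0.74) and *atp-2* (0.84) were higher. *nuo-5* of complex I, known in mammals as NDUFS1, had 229, 277 and 237 CPM with AZT and 141, 118 and 99.1 CPM with FLT.

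**Figure D4:**
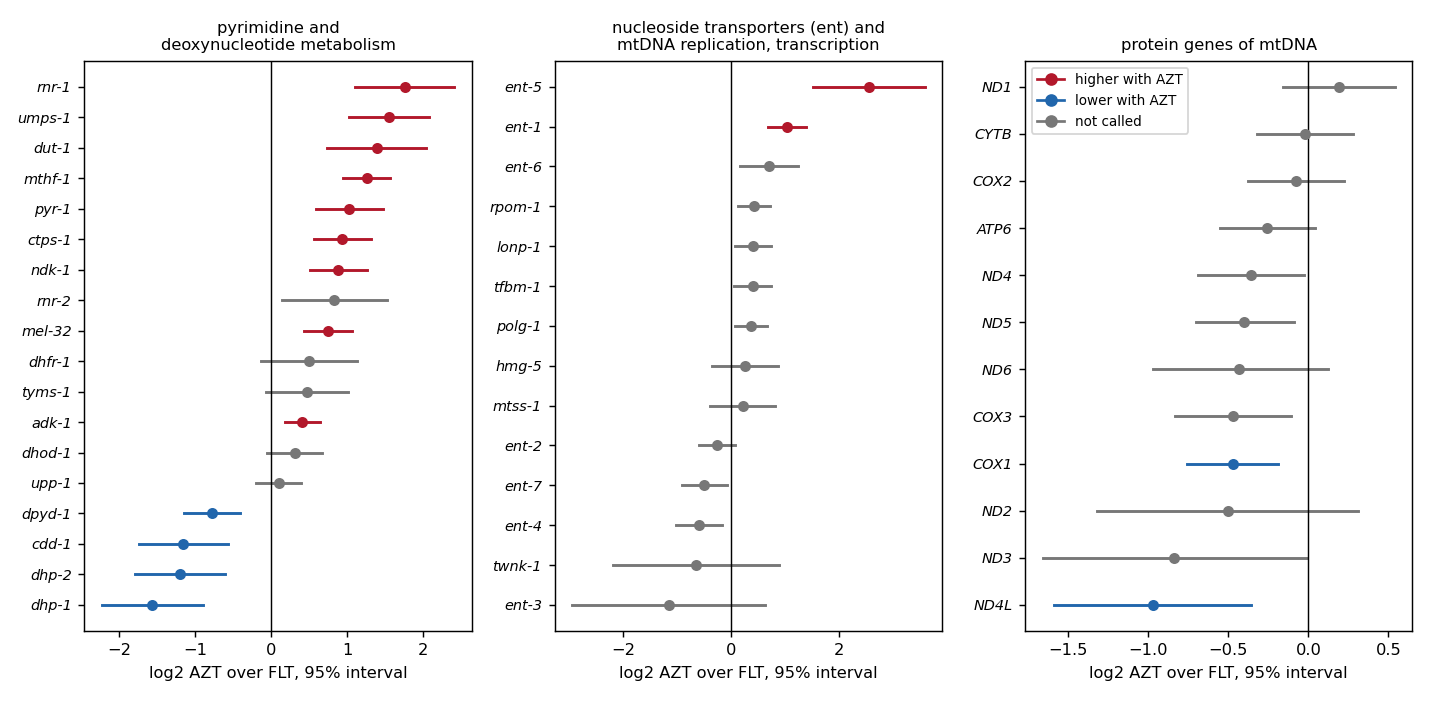
Log2 differences of AZT over FLT at 24h with 95% intervals for genes of pyrimidine and deoxynucleotide synthesis, of nucleoside transport and mtDNA replication, and for the protein genes of mtDNA, with 0 as a vertical line. Genes such as *rnr-1* (1.76) lie to the right of 0, genes such as *dhp-1* (−1.56) to the left, and mtDNA genes between −0.97 and 0.19.

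Carbon metabolism was mixed. Of 26 genes of pyruvate dehydrogenase and the TCA and glyoxylate cycles 13 were higher and 2 lower, with *fum-1* at 0.91 and *dlat-1* at 0.87, and the aconitase *aco-1* (−0.84) and *sucl-1* (−0.72) the lower ones. Of 23 genes of glycolysis and gluconeogenesis 8 were higher and 5 lower, and 8 and 1 without FLT replicate 3. Isozymes differed in direction. The pyruvate kinase *pyk-1* had 471, 501 and 421 CPM with AZT and 220.5, 179 and 158 CPM with FLT, and *pyk-2* had 65.0, 63.5 and 73.0 against 106, 143 and 186. The glyceraldehyde phosphate dehydrogenase *gpd-1* was higher (2.08) and *gpd-3* lower (−0.79). Their coding sequences are alike, so that counts may be shared.

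Among genes lower with AZT, that of a metallothionein differed most by fold of those with a mean of at least 1 CPM. *mtl-1* (WBGene00003473, chromosome V, 6691371 to 6691863), a metallothionein induced by heavy metals in the intestine, had 2.3, 0.801 and 3.07 CPM with AZT and 58.2, 198 and 328 CPM with FLT, against means of 60.6 CPM with DMSO and 2.77 CPM in unexposed nematodes. It was 91.1-fold lower with AZT (log2 difference −6.51, standard error 0.81, adjusted p = 1.3e-05). The AZT libraries matched the unexposed level while the FLT libraries lay near or above the DMSO mean. The second metallothionein, *mtl-2*, had 89.6, 90.1 and 81.3 CPM with AZT and 368, 310.1 and 547 CPM with FLT. *ftn-1* (chromosome V, 7546468 to 7547579), an iron storage ferritin of the intestine, had 1.81, 1.09 and 2.72 CPM with AZT and 14.6, 113 and 164 CPM with FLT, with means of 12.7 and 2.68 CPM with DMSO and in unexposed nematodes. *ftn-2* had 205, 183 and 220.3 CPM with AZT and 435, 641 and 847 CPM with FLT. All 4 of these genes, grouped here after their values were seen, were lower with AZT, and FLT replicate 1 was nearest to AZT in 3 of the 4. None of these calls was lost in any alternative fit.

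Other genes with the largest differences have less known roles. The gene F53A9.8 (chromosome X, 8718641 to 8718904) had 7.31, 7.14 and 28.6 CPM with AZT and 116, 484 and 1271 CPM with FLT. The pseudogene WBGene00018448 on chromosome II (1021505 to 1023528) had 0.302, 0 and 0.571 CPM with AZT and 8.16, 29 and 26.7 CPM with FLT. The noncoding *linc-37*, which overlaps *zip-2* on the same strand, had 0.181, 0 and 0.483 against 1.81, 10.4 and 17.1. FLT replicates 2 and 3 were the highest in each of these, and the AZT means were near the unexposed means. F10C1.3, F43C11.1, ZK177.9, F40G9.7, *ugt-34*, *ilys-2* and W07B8.4 were at or under 0.176 CPM in every AZT library and at or above 0.175 CPM in every FLT library, with at least 1 FLT library above 1 CPM in each. In the other direction 3 neighbouring genes of chromosome X stood among the 12 largest. C27C12.3, F31F6.1 and F31F6.3 lie within 14863609 to 14872867. F31F6.1 had 9.43, 10.1 and 8.56 CPM with AZT and 0.874, 1.02 and 0.215 CPM with FLT. C27C12.3 had 31.4, 38.8 and 27.5 against 5.07, 3.97 and 2.63, and F31F6.3 had 6.71, 5.97 and 4.61 against 0.816, 0.967 and 0.269. All 3 lay above the controls with AZT and below them with FLT. F19B10.5 on chromosome II differed most among genes higher with AZT, with 4.35, 6.12 and 4.26 CPM with AZT and 0.641, 0.204 and 0.269 CPM with FLT.

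Intestinal genes were lower with AZT in 20 of 30 and higher in 1 (median −1.07), and 9 were lower without FLT replicate 3. Summed they reached 6308, 6357 and 8245 CPM with AZT and 11454, 15721 and 18232 CPM with FLT, with the DMSO libraries between 13909 and 20988 and the unexposed between 7737 and 8578. AZT thus lay nearest to the unexposed nematodes and FLT nearest to DMSO. The aspartyl protease *asp-1* had 686, 745 and 1093 CPM with AZT and 1740.4, 2444 and 2744 CPM with FLT, and *asp-6* had 569, 589 and 943 against 1278, 2462 and 2915. The cathepsin B-like *cpr-6*, one of the most abundant genes called lower, had 1262, 1241 and 1469.9 CPM with AZT and 2052, 1892 and 1781 CPM with FLT. The intestinal regulators *elt-2* (−1.35) and *elt-7* (−1.1) and the esterase *ges-1* (−1.26) were lower, whereas the intestinal markers *vha-6* (0.13), *act-5* (0.05) and *ifb-2* (−0.53) were not called. *erm-1*, which links membrane and cytoskeleton, was the member called higher (0.58).

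**Figure D5:**
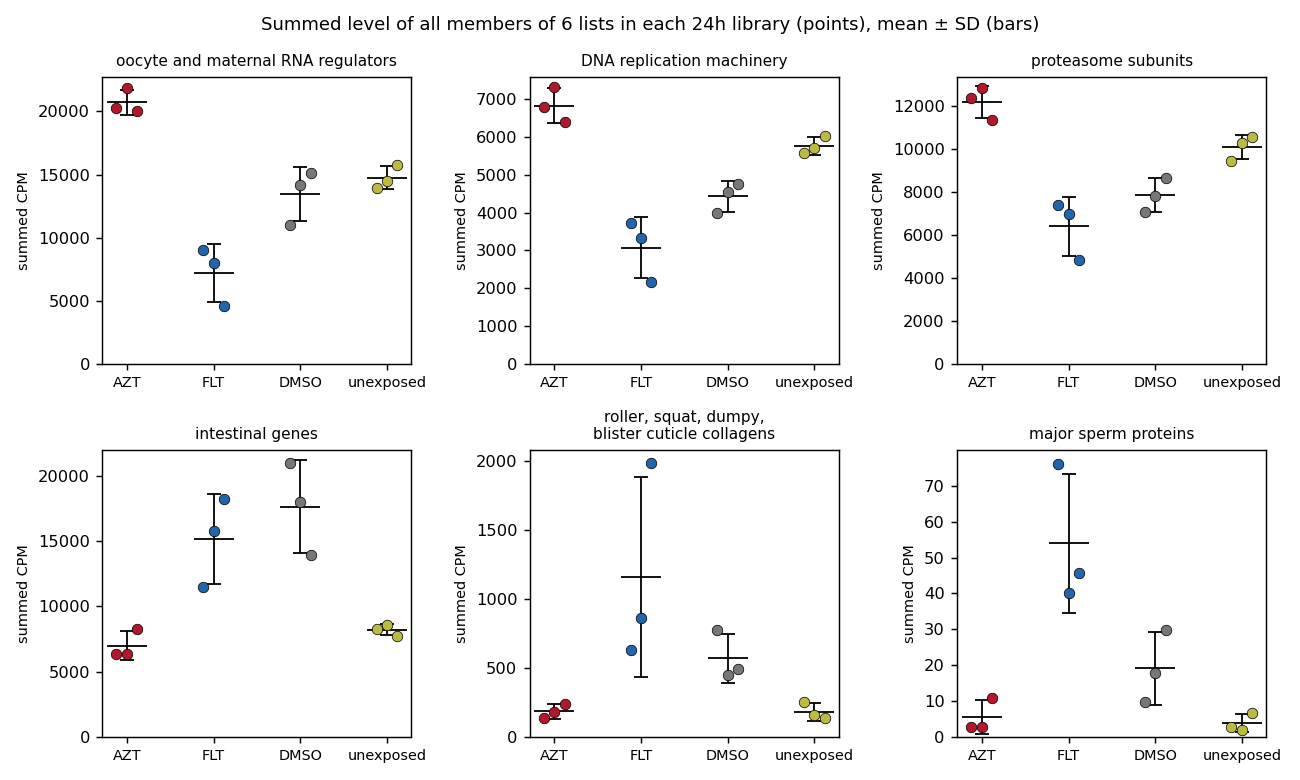
Summed CPM of 6 gene groups in each library, 1 point per library with mean ± SD per group (n = 3). Oocyte, DNA replication and proteasome genes are higher with AZT (oocyte sums 20002 to 21859.7 against 4586 to 8977 with FLT), and intestinal genes, roller and dumpy collagens and major sperm proteins are lower.

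Genes of defence were lower with AZT. Of 36 lysozyme and saposin-like genes 24 were lower and 0 higher (median −1.50). The antimicrobial saposin *spp-5* (chromosome X, 7319937 to 7320354) had 720.2, 740.3 and 881 CPM with AZT and 1907, 2704 and 2924 CPM with FLT, and the lysozymes *lys-2* (−1.70) and *ilys-5* (−0.95) were lower too. Of 43 epidermal antimicrobial peptides 25 were lower and 0 higher (median −1.67). *nlp-29*, induced by wounding and fungal infection, had 39.2, 28.6 and 36.3 CPM with AZT and 131, 134 and 139 CPM with FLT, and *cnc-7* had 8.22, 5.68 and 8.73 against 32.4, 38.7 and 52.5. These are genes of the epidermis, so that the lower levels were not confined to the intestine. Epidermal markers did not all go that way. *dpy-7* (−3.16), *wrt-2* (−2.39) and *elt-1* (−1.04) were lower with AZT, and *lin-26* was higher (0.48). Of 144 C-type lectins 68 were lower and 3 higher (median −1.56), and 32 were lower without FLT replicate 3. *clec-67* had 2.48, 2.04 and 2.33 CPM with AZT and 17.2, 31.6 and 29.1 CPM with FLT. The 3 lectins called higher, *clec-87* (1.75), *clec-88* (1.24) and *clec-4* (1.43), include an abundant one. *clec-87* had 1481, 1726 and 1415 CPM with AZT and 568, 539 and 268 CPM with FLT, and the list as a whole summed to 4569 to 4911 CPM with AZT and 4668 to 6099 CPM with FLT. Of 44 infection response genes 16 were lower and 1 higher (9 lower without FLT replicate 3), with *pals-24* at −1.69 and *pals-23* at −1.8.

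Genes of fat metabolism differed by list. Of 25 desaturases, elongases and their regulators 16 were lower and 0 higher (median −0.84). The stearoyl desaturase *fat-6* (chromosome IV, 11913692 to 11915687), which makes oleic acid, had 281, 257 and 288 CPM with AZT and 522, 1091 and 2089 CPM with FLT, with means of 664 CPM with DMSO and 363 CPM in unexposed nematodes. The elongases of branched chain fatty acids *elo-5* and *elo-6* had 324, 329 and 354 against 707, 1133 and 1174, and 656, 604 and 622 against 1231, 1829 and 2064. FLT replicate 3 was the highest in all 3, and without it 4 of the 25 were lower and 1 higher. The lysosomal lipase *lipl-1* had 9.25, 8.16 and 16.7 CPM with AZT and between 62.4 and 143 CPM with FLT, with means of 13.2 and 6.23 CPM with DMSO and in unexposed nematodes. *lipl-1* and *lipl-2* (−3.49) rise in fasted worms and stood above the controls with FLT. Among 61 genes of fatty acid activation and beta-oxidation 20 were lower and 9 higher, with 6 of each without FLT replicate 3. The peroxisomal *acox-1.5* (−2.13) and *ech-7* (−2.07) were lower, and *acs-2*, a mitochondrial acyl-CoA synthetase of fasting, was higher, with 78.1, 70.6 and 94.4 CPM with AZT and 40.2, 15 and 10.5 CPM with FLT. *acs-13* (1.58) and the triglyceride lipase *atgl-1* (0.89) were higher as well.

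Many moulting genes and some cuticle collagens were lower with AZT. Of 66 genes of the moulting cycle and apical matrix 39 were lower and 2 higher (median −1.4), and 22 lower and 3 higher without FLT replicate 3. *fbn-1*, a fibrillin that anchors the cuticle and overlaps *upp-1* on the other strand, had 7.98, 8.96 and 12.2 CPM with AZT and 35.7, 61.2 and 96.1 CPM with FLT, against means of 95.9 CPM with DMSO and 10.3 CPM in unexposed nematodes. The members called higher were *bli-4* (0.65), a convertase that processes collagens, and *nhr-23* (1.22), the nuclear receptor that drives the moult. Of 16 collagens named for roller, squat, dumpy and blister phenotypes 7 were lower and 0 higher (median −1.97). *dpy-7* (chromosome X, 7536467 to 7537792), made by the epidermis before each moult, had 3.69, 3.93 and 7.90 CPM with AZT and 20.2, 31.8 and 89.1 CPM with FLT, and *dpy-14* had 34.8, 42.5 and 68 against 211, 268 and 661. The 7 were *dpy-2*, *dpy-3*, *dpy-7*, *dpy-10*, *dpy-14*, *dpy-17* and *sqt-3*. Summed, the list reached 134.4, 179.1 and 238.4 CPM with AZT and 630.2, 859.8 and 1988 CPM with FLT. Of 109 *col* genes 24 were lower and 0 higher, near the background of 23.1%, and 13 were lower without FLT replicate 3. The *col* list as a whole summed to 12097, 12592 and 11529 CPM with AZT and 19616, 7946 and 5532 CPM with FLT. The AZT sums thus lay within the range of the FLT sums.

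Hedgehog-related genes, many of them active in the epidermis at the moult, were lower in 28 of 72 and higher in 2, and 9 were lower without FLT replicate 3. In sum the list was higher with AZT, at 1280.3, 1425 and 1321 CPM against 1049, 860.2 and 1081 CPM with FLT. *wrt-10* had 3.75, 6.85 and 7.77 CPM with AZT and 22.8, 45.1 and 96.9 CPM with FLT. The patched-related *ptr-4*, needed for moulting, had 2.72, 2.55 and 3.73 against 11.2, 14.2 and 42.8. The members called higher act in the germ line and early cell division. *ptc-1*, a patched homologue needed for cytokinesis of germ cells, had 579, 676 and 610.3 CPM with AZT and between 99.5 and 190.3 CPM with FLT, and *ptr-2* had 249, 289 and 217 against 53.8, 58.6 and 30.5.

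Detoxification genes were examined as the families that handle foreign compounds. Of 44 glutathione S-transferases 19 were lower and 2 higher (median −1.15), of 63 UDP-glucuronosyltransferases 23 and 3, and of 67 cytochromes P450 24 and 3. Without FLT replicate 3 the lower calls were 12, 13 and 11. *gst-4* (chromosome IV, 10142225 to 10143099), the reporter of oxidative stress in the study, had 30.9, 22.6 and 24.1 CPM with AZT and 53.8, 65.0 and 78 CPM with FLT, with means of 29.5 CPM with DMSO and 29.8 CPM in unexposed nematodes. Its log2 difference was −1.34 (standard error 0.18, adjusted p = 1.9e-05), and all AZT libraries lay near the controls while all FLT libraries lay above them. The study's own 24h reading was unlike this. There a *gst-4* promoter reporter rose slightly with AZT and another NRTI, ddI, but not with FLT. That reading was of GFP, not RNA, and at a higher dose. In the first hours of exposure the study saw the same reporter rise with every NRTI it tested, FLT included. *gst-10*, which conjugates lipid peroxidation products, had 50.8, 43.1 and 36.7 CPM with AZT and 127, 166 and 232 CPM with FLT, against means of 38.7 and 28.7 CPM with DMSO and in unexposed nematodes. *gst-5* had 38.7, 33.0 and 26.2 against 82.0, 84.9 and 118. In all 3 genes the FLT libraries lay above both control means and above every AZT library. *ugt-6* (−2.87), *ugt-5* (−1.28), *cyp-14A2* (−2.36) and *cyp-14A5* (−1.82) were lower as well.

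A few detoxification genes differed among the AZT libraries themselves. *gst-21* had 22.9, 24.8 and 5.88 CPM with AZT and 4.08, 3.61 and 3.49 CPM with FLT. *gst-35* had 32.8, 33.4 and 5.71 against 7, 3.61 and 6.71, and *ugt-37* had 5.26, 5.46 and 0.834 against 0.700, 0.458 and 0.967. AZT replicates 1 and 2 were high and replicate 3 low, and for *gst-35* and *ugt-37* replicate 3 overlapped the FLT libraries. All 3 genes were called higher (2.25, 2.05 and 2.42), and their means were 2.18, 1.39 and 0.315 CPM with DMSO and 33.7, 32.5 and 3.50 CPM in unexposed nematodes. Each call was lost in at least 1 fit, *gst-35* in 5. Among P450 genes the near-identical *cyp-31A2* (1.35) and *cyp-31A3* (1.52), which serve the eggshell, were higher. Drug efflux genes lay near the background of 17.4% higher and 23.1% lower. Of 29 ABC transporters 6 (20.7%) were higher and 7 (24.1%) lower, and 5 and 2 without FLT replicate 3. *mrp-4* (chromosome X, 9884274 to 9889712, with F21G4.1 on the other strand) had 218, 291 and 204 CPM with AZT and 47.6, 33.3 and 20.1 CPM with FLT, and *mrp-7* differed by 1.89. *pgp-5* (−1.88) and the gut granule transporter *haf-9* (−1.93) were lower.

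The study asked after the stress regulators HIF-1, SKN-1 and CEP-1. Of 21 HIF-1 pathway genes and targets 15 were lower with AZT and 1 higher (median −1.13), against the background of 23.1% lower, and 12 were lower without FLT replicate 3. *hif-1* itself had 108, 114 and 127 CPM with AZT and 146, 182 and 215 CPM with FLT (−0.64, adjusted p = 0.0087), a call lost in 7 fits. Of these, 5 genes of cysteine and sulfide metabolism are given as examples. *cth-1*, a cystathionine gamma-lyase, had 42.6, 39.3 and 37.9 CPM with AZT and 113, 144 and 174 CPM with FLT, the cysteine dioxygenase *cdo-1* had 19.5, 15.9 and 16.8 against 47.8, 58.8 and 82.4, and *cysl-2* (−2.08), *cysl-1* (−1.13) and *sqrd-1* (−0.88) were lower too. *nhr-57*, a classical HIF-1 reporter, had 4.35, 3.86 and 3.51 CPM with AZT and 9.97, 16 and 20.9 CPM with FLT. The regulators *egl-9* (−0.13), *vhl-1* (−0.11) and *aha-1* (−0.07) were not called. The member called higher was *acs-2*. The list was written with earlier results of these data known and is no independent evidence of a direction.

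The list of SKN-1 genes did not differ as a group between AZT and FLT. Of 30 genes of SKN-1 and glutathione metabolism 4 were higher and 9 lower, and 1 and 8 without FLT replicate 3. *skn-1* had 211, 236 and 219.6 CPM with AZT and between 98 and 129 CPM with FLT (0.98). It is loaded into oocytes, and 3 genes lie on its other strand. Its targets *gst-4*, *gst-10* and *nit-1* (−2.48) were lower, *gcs-1* (0.44) and *gsr-1* (0.64) higher. Of 13 superoxide dismutases, catalases, peroxiredoxins and the like 2 were higher and 3 lower, and 1 of each without FLT replicate 3. *sod-3* had 1.87, 1.24 and 1.84 CPM with AZT and 4.08, 4.83 and 4.24 CPM with FLT, *msra-1*, which repairs oxidised methionine, had 133, 137 and 174 against 63.3, 53.6 and 41.4, while its means were 462 CPM with DMSO and 429 CPM in unexposed nematodes, above both compounds. The mitochondrial longevity genes *clk-1* (0.18, 95% interval −0.25 to 0.61) and *isp-1* (0.16, −0.06 to 0.39) were not called, and for both the interval stayed within 2-fold.

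Of 29 genes of insulin signalling and DAF-16 targets 6 were higher and 12 lower. Among the higher were the receptor *daf-2* at 1.03 (86.9, 98.7 and 113 CPM with AZT and 52.3, 45.4 and 48.2 CPM with FLT), the kinase *age-1* at 1.6, *daf-18* at 1.78 and *daf-16* at 0.66. The lower ones include *mtl-1*, *sod-3* and *fat-7* (−1.75), which DAF-16 is known to raise, and *ins-7* (−2.36) and *dod-22*, which it is known to repress. *dod-22* had 0.967, 0.510 and 1.23 CPM with AZT and 8.80, 21.3 and 21.2 CPM with FLT.

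Neuropeptides and neuronal genes were lower. Of the tested *flp*, *nlp* and *ins* genes 54 (45.4%) were lower and 1 higher (median −1.24), and 28 were lower without FLT replicate 3. The sum was 866.4, 766.0 and 945.4 CPM with AZT and 1685, 1941 and 2081 CPM with FLT. Part of the list is not neuronal, since *nlp-29* and *nlp-27* (−1.32) are epidermal antimicrobial peptides. *ins-29* had 0.484, 0.146 and 0.527 CPM with AZT and 2.04, 3.51 and 6.77 CPM with FLT. Of 38 neuronal and synaptic genes 18 were lower and 0 higher (median −0.94), and 7 were lower without FLT replicate 3. *unc-64*, the syntaxin, had 25.8, 22.2 and 26 CPM with AZT and 47.2, 48.5 and 62.9 CPM with FLT, and *ric-4*, the SNAP-25 homologue, had 9.01, 9.03 and 9.26 against 22.4, 16.9 and 22.6. Both overlap another gene on the opposite strand. The pan-neuronal markers *rgef-1*, *unc-119*, *snb-1* and *unc-31* were not called, between −0.95 and 0.14. Muscle lay below the background in both directions, with 5 of 42 genes higher and 6 lower and 0 lower without FLT replicate 3. The myosin *unc-54* was higher (0.80), *myo-3* was at −0.92 and not called, and the titin-like *unc-22* had 37.4, 36.8 and 30.2 CPM with AZT and 20.0, 16 and 14.5 CPM with FLT.

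Large regulatory families were lower in part. Of 197 nuclear hormone receptors 60 were lower and 10 higher (median −0.65), and 19 were lower without FLT replicate 3, with *nhr-127* at −4.04 and *nhr-71* at 1.47. Of 353 F-box, MATH and BTB adaptors 85 (24.1%) were lower, near the background of 23.1%, and 10 higher, and 34 were lower without FLT replicate 3. *math-38* had 1.03, 1.31 and 2.55 CPM with AZT and 20.8, 33.6 and 51.5 CPM with FLT, with a mean of 0.829 CPM in unexposed nematodes. Of 54 transcription factors and other genes of the early embryo 13 (24.1%) were lower, again near the background of 23.1%, and 1 higher. Without FLT replicate 3, 10 of them were lower.

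Genes of the sperm cytoskeleton were scarce in all libraries and lower with AZT. Of 31 major sperm protein genes, the cytoskeleton of nematode sperm, 23 were tested, and 8 held too few counts. Of the 23, 18 were lower with AZT and 0 higher, and in all 23 every AZT library lay below every FLT library. The median was −3.14, a value of genes at a few counts that depends on the prior count. The filter kept genes with enough counts elsewhere in the series, and members so scarce with AZT passed it mostly through other groups. Their shared direction, here and in the change to 72h, is thus in part set by the filter and is no independent evidence. Summed, all 31 genes reached 2.599, 2.767 and 10.97 CPM with AZT and 76.2, 40.1 and 45.65 CPM with FLT. The DMSO libraries lay between 9.733 and 29.93 and the unexposed between 2.033 and 6.659. FLT thus stood above both controls, and AZT overlapped the unexposed range. The genes are near-identical, so that the counts of single members are uncertain. Of 41 small sperm peptide genes 25 were lower and 0 higher. *nspe-1* had 11.7, 8.16 and 11.5 CPM with AZT and 53.5, 67.7 and 73.4 CPM with FLT, against means of 13.7 CPM with DMSO and 7.85 CPM in unexposed nematodes. The sperm phosphatases *gsp-3* (0.0728 to 0.307 CPM with AZT and 1.02 to 3.73 CPM with FLT) and *gsp-4* (0.146 to 0.483 and 1.42 to 3.61) were at trace levels with both. Without FLT replicate 3, 11 major sperm protein genes and 18 of the small peptides were called. Among *spe* and *fer* genes 8 of 28 were lower and 4 higher (4 and 1 without FLT replicate 3), and those higher include *spe-39* (0.86), which acts in vesicle traffic of many cells, and *spe-44* (1.06).

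The difference between AZT and FLT was not the same at 72h. The test of the change in the AZT over FLT difference from 24h to 72h passed for 10194 of 16048 genes (63.5%), 5809 upwards and 4385 downwards. Of the 2786 genes higher with AZT at 24h 2381 (85.5%) had the opposite sign at 72h, with a median log2 difference of −0.54 there, and of the 3713 lower at 24h 3528 (95%) had the opposite sign, with a median of 1.07. Over all genes tested the sign differed for 13258 (82.6%), so that most genes, called or not, took part. *lin-41* was at 98.8 ± 14.4 CPM with AZT and 244 ± 82.0 CPM with FLT at 72h (SD, n = 3 each), and *rme-2* at 252 ± 24.6 and 723 ± 256 CPM. *mtl-1* was at 127 ± 49.2 CPM with AZT and 66.3 ± 11.9 CPM with FLT, and *dpy-7* at 47.4 ± 5.20 and 15.3 ± 2.45 CPM. *gst-10* was at 82.3 ± 15.2 and 55.8 ± 3.39 CPM. In each of these 5 genes the order of the compounds at 24h was turned round, and the change passed the test (adjusted p between 6.0e-07 for *gst-10* and 7.6e-06 for *dpy-7*).

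Several groups turned in the same way. At 72h the median log2 difference was −0.77 over oocyte genes, −1.19 over eggshell genes and −1.03 over repair genes, and 1.32 over moulting genes, 0.94 over intestinal genes and 3.77 over major sperm protein genes. Over all genes tested the median was 0.32 at 72h, after −0.33 at 24h. The change from 24h was called downwards for 29 of 31 oocyte genes and 40 of 41 repair genes, and upwards for 23 of 23 major sperm protein genes, 54 of 66 moulting genes and 26 of 30 intestinal genes. Of all 16048 genes tested it was called downwards for 4385 and upwards for 5809. The medians of other groups kept their sign, such as SKN-1 and glutathione metabolism, with −0.25 at 24h and −0.15 at 72h, and histones, with 0.07 and 0.36. Their members moved both ways, however. Of 30 genes of SKN-1 and glutathione metabolism the change was called upwards for 11 and downwards for 6, and of 28 histones for 6 and 4. *hrde-1* was at 185 ± 36.5 CPM with AZT and 549 ± 138 CPM with FLT, and *umps-1* at 39.1 ± 3.28 and 96.8 ± 22.8 CPM. The order held for some genes. *msra-1* was at 71.7 ± 9.23 CPM with AZT and 35.8 ± 7.70 CPM with FLT at 72h, higher with AZT at both times, and its change was not called (−0.49, adjusted p = 0.16). For *COX1* the change was not called either (0.21, adjusted p = 0.32), with 3166 ± 470.2 CPM with AZT and 3791 ± 555 CPM with FLT at 72h.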

How the data were processed

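RNA of whole *C. elegans* was sequenced on Illumina machines from TruSeq libraries. The deposited files hold gene counts: per the submitters' processing notes reads passed CASAVA 1.8.2 and Trimmomatic 0.32 and were aligned to WBcel235 with TopHat2 2.0.8 and Bowtie2 2.1.0, and the authors counted them with HTSeq and used DESeq. Whether HTSeq used strand is not given in the sources used here, so genes that overlap on opposite strands, and near-identical copies, are uncertain.

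The count column was used as deposited. The closing entries of each file (unassigned reads, 13.1 to 14.5% with AZT and 17.3 to 17.7% with FLT) were dropped. The filterByExpr rule, at 10 counts per library and 15 in total, chose the genes tested, and TMM set the scale. The 10 groups of 3 libraries were fitted with edgeR 4.0.16 (robust quasi-likelihood, 20 residual degrees of freedom, common biological coefficient of variation 0.24). The fit kept edgeR's default prior count. A prior count of 2 was used only for the log2 CPM of the correlations and principal components. Calls had a Benjamini-Hochberg adjusted p under 0.01 over all tested genes, and AZT against FLT was the only pair of compounds compared. Standard errors and 95% intervals come from that fit. The difference between times was an interaction term. Coordinates come from the Ensembl annotation of the same build, and mtDNA symbols from RefSeq by position. R 4.3.3 and DESeq2 1.42.0 (as an alternative) were used. The test was also tried on simulated counts, and no result given here rests on them. Total counts on genes ran from 15861163 to 25412771 in the 6 libraries, and genes of few counts are the least precise.

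Named genes were the 12 largest differences with a mean of at least 1 CPM and libraries that do not overlap, the 10 most abundant, the 3 of smallest p of each list in each direction, all of the mtDNA, pyrimidine, mtDNA replication and transporter lists, and the study's own candidates. Other members were named as examples after their values were seen. The members and lists were chosen with earlier results of these data known. Alternatives were other scalings, no filter, DESeq2, a threshold of 0.05, fewer libraries, a replicate number as a block, and each replicate left out. No reference sequence was used here.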

Additional observations from a re-analysis of the deposited data

Results flagged for a closer look

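The AZT over FLT difference at 72h differed from that at 24h for 10194 of 16048 tested genes by an interaction term in the edgeR fit (adjusted p under 0.01), 5809 of them upwards and 4385 downwards. By the names under which the counts were deposited, AZT and FLT libraries each kept their own sequencing lane at both times. DMSO and unexposed libraries were in the fit, but were not among the groups this test compared. The number was 8947 to 10017 when any 1 of the 6 libraries of 24h was left out, and 9267 to 10031 when any 1 of the 6 libraries of 72h was.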

How the results depend on the processing

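With library totals 1826 genes were called higher. With 1 replicate left out, genes called higher numbered 1948 to 2828 and genes called lower 1562 to 3577, the lowest counts without FLT replicate 3. Calls in common with the full fit were 1904 of 2786 (68.3%) higher and 1555 of 3713 (41.9%) lower without that library. With the replicate block 2794 genes were higher and 3661 lower, and same-numbered AZT and FLT libraries deviated together with correlations of 0.0636, 0.06 and 0.203, too little to pair them. DESeq2 called 3389 higher and 4028 lower. A threshold of 0.05 gave 3779 and 5424. Of 282 named genes called, 206 were called in every fit, 76 were lost in at least 1 (62 without FLT replicate 3) and 0 changed sign. The signs that turned belong to genes not called, and the cause was not tested. *CYTB* was at 0.03 with relative log expression scaling and with DESeq2, 0.02 with no filter and 0.00 with all libraries but d4T replicate 2, and −0.05 to 0.10 with 1 replicate left out. *COX2* ranged from −0.13 to 0.05 and *ent-2* from −0.37 to 0.02 in the same way. With library totals *ND1* was at −0.06, *clk-1* at −0.07, *isp-1* at −0.09, *mtss-1* at −0.03 and *upp-1* at −0.16, and the medians of histones (−0.18), ubiquinone synthesis (−0.08) and glycolysis (−0.02) fell below 0. Log2 differences of genes at a few counts per library, such as the sperm genes with AZT, depend on the prior count and are no bound on the true fold.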
